A study of Homo sapiens with 12 samples.

Results

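The 10 circadian clock genes CLOCK, ARNTL, PER1, PER2, PER3, CRY1, CRY2, NR1D1, NR1D2 and DBP were examined among the 58735 genes counted in HK-2 cells, a line of immortalised human proximal tubular epithelial cells. They were chosen by name as the core of the clock loop and 1 of its output genes, and each had 1 row in the count table. All 10 passed the filter on low counts in each comparison. The samples, 12 in all, fell into 4 groups of 3. The control group was given water. The iohexol group was exposed for 48 h to 75 mg I/mL of iohexol, an iodinated contrast medium. The cisplatin group was exposed for 48 h to 5 μM cisplatin, a platinum drug that binds DNA, and the vancomycin group for 48 h to 4 mM vancomycin, a glycopeptide antibiotic. All groups were the same immortalised line in DMEM/F12 with serum, and the paper describes no further change to its genome.

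The clock of mammalian cells is a feedback loop of transcription. CLOCK and ARNTL (also called BMAL1) form a dimer that binds E-box sequences and switches on the PER and CRY genes, whose proteins return to the nucleus and block the dimer. In a second loop the same dimer drives NR1D1 and NR1D2 (REV-ERB alpha and beta), which repress ARNTL, while the ROR receptors activate it. In the renal tubule clock output genes include transporters and their regulators. The transcripts of several of these genes rise and fall over the day in cultures whose cells share a phase. Every drug was sampled at 1 time, and the sources used here do not say that the cultures were synchronised, so a different level and a different phase cannot be told apart. Fewer cells of a kind and less RNA per cell cannot be told apart in these bulk samples either. Nothing in the sources says that the 3 samples of a group were separate cultures, so the p-values measure the spread between these samples, which may be technical.

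Total counts were between 14057282 and 18177109 per sample, and 3 counts corresponded to 0.177 to 0.218 CPM, the count divided by the scaled library total and multiplied by 1e+06. The keratins KRT8, KRT18 and KRT19 and the renal factor PAX8 were detected in every sample, at 33.7 CPM or more. Of 7 proximal tubule markers GGT1 reached 112 to 381 CPM, ANPEP, CUBN, AQP1, SLC34A1 and SLC5A2 stayed between 0.0668 and 5.05 CPM, and LRP2, which encodes megalin, was at 0 in 8 of 12 samples. Among 6 markers of other cells, PTPRC, VWF, UMOD and AQP2 were at 0.5005 CPM or less, PECAM1 at 0 to 4.01 and COL1A1 at 21.9 to 50.4 CPM. Iohexol replicate 3 stood apart from the other iohexol samples. Its counts differed from theirs by a chi-square of 16.7 and 15.9 per degree of freedom over genes, against 3.71 between the other two and 2.31 to 12.7 within the other groups.

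The sequences before the start sites are shown for 4 repressor genes, since the dimer and its partners act through short motifs there. Each of the 4 was called between at least 1 pair of drugs. CRY2 and PER3 were too and are not shown, and the 4 include both genes found with an E-box. The windows are from RefSeq on GRCh38.p14, which lists 15 windows of 300 bases for the 10 genes (ARNTL is named BMAL1 there). Each line below gives the 250 bases before the start site on the gene's own strand. Capitals mark the E-box CACGTG, the related E-prime box CACGTT, the D-box TTANGTAA and the core of the ROR and REV-ERB element, AGGTCA, each on either strand. PER1 lies on the minus strand at chr17:8152405-8152654, CRY1 on the minus strand at chr12:107093550-107093799, NR1D1 on the minus strand at chr17:40100590-40100839 and the second window of NR1D2 on the plus strand at chr3:23945871-23946120.
PER1: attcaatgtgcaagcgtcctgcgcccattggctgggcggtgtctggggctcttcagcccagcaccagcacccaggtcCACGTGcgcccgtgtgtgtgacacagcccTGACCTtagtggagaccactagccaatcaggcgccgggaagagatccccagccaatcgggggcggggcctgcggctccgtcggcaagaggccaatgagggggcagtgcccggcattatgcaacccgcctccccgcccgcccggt
CRY1: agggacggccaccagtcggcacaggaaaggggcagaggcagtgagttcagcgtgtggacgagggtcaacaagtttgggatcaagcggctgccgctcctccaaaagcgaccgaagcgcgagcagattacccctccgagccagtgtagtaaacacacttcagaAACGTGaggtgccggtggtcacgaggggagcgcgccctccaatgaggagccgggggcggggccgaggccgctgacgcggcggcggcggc
NR1D1: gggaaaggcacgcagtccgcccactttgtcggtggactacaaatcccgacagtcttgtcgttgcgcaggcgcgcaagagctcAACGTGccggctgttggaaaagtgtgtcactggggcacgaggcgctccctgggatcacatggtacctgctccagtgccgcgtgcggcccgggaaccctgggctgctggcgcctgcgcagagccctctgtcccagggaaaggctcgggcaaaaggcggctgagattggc
NR1D2: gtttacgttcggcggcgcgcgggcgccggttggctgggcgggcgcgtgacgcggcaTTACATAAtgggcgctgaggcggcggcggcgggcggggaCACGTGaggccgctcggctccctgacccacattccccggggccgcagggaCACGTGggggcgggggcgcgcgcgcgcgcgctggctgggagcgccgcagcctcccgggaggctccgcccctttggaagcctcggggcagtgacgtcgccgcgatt
The second NR1D2 window held a pair of E-boxes and a D-box. PER1 held 1 E-box and 1 AGGTCA, and CRY1 and NR1D1 held 1 E-prime box each.

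An E-box was found in 2 of the 15 windows, for 2 of 10 genes. Over RefSeq, 7.26% of 35116 windows of the same length held one. The E-prime box was found in 5 of the 15 windows, for 5 genes (CLOCK, PER2, CRY1, CRY2 and NR1D1), against 5.34% of all windows. The D-box, bound by DBP and its relatives, was found in 3 of the 15 windows (PER2, PER3 and NR1D2) against 2.18% of all windows. AGGTCA was found in 4 of the 15 windows, for ARNTL, PER1 and CRY2, against 13.8% of all windows. In ARNTL it lay 32 bases after the start site of the second window. The cAMP response element TGACGTCA was found in none of the 15 windows, against 1.85% of all windows. The motifs do not overlap one another in these windows. A match is a run of letters and was not tested as a binding site.

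**Figure D1:**
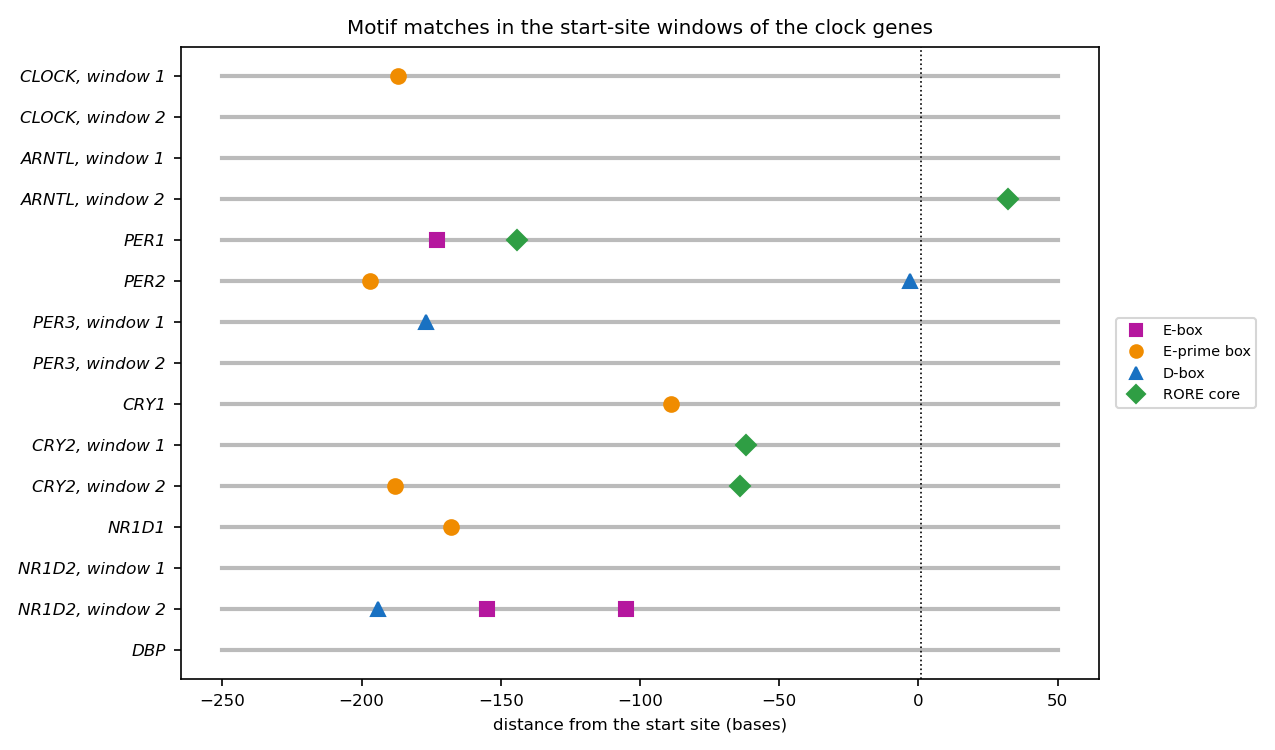
Motif matches in the 15 start-site windows of the 10 clock genes, plotted by distance from the start site in bases (dotted line). Each grey line is 1 window of 300 bases, and symbols show the E-box, E-prime box, D-box and RORE core (AGGTCA). NR1D2 window 2 holds 3 matches, and 5 windows hold none.

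The gene models in the count table are on GRCh38. Of the activators, it has CLOCK (ENSG00000134852) at chr4:55427903-55547138 on the minus strand and ARNTL (ENSG00000133794) at chr11:13276652-13387266 on the plus strand. The period genes are PER1 (ENSG00000179094) at chr17:8140472-8156506 on the minus strand, PER2 (ENSG00000132326) at chr2:238244038-238290102 on the minus strand and PER3 (ENSG00000049246) at chr1:7784320-7845177 on the plus strand. The cryptochromes are CRY1 (ENSG00000008405) at chr12:106991364-107093829 on the minus strand and CRY2 (ENSG00000121671) at chr11:45847118-45883248 on the plus strand. Of the second loop it has NR1D1 (ENSG00000126368) at chr17:40092787-40100725 on the minus strand and NR1D2 (ENSG00000174738) at chr3:23945260-23980618 on the plus strand, and of the outputs DBP (ENSG00000105516) at chr19:48630030-48637438 on the minus strand. Counts were taken over these whole models, so transcript forms were not told apart.

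In the control group the clock genes differed widely in level. Per kilobase of gene model, NR1D2 was highest at 11.6 ± 1.1 CPM (SD, n = 3), followed by CRY1 at 10.6 ± 0.38 and CLOCK at 6.31 ± 0.34. NR1D1 (5.07 ± 0.23) and PER1 (5.00 ± 0.46) were within their spread of each other, as were NR1D2 and CRY1. PER3 reached 4.09 ± 0.17, CRY2 2.76 ± 0.22, ARNTL 1.93 ± 0.17, PER2 1.18 ± 0.14 and DBP 0.678 ± 0.21 CPM per kilobase. DBP was thus lowest, and 21.9% of the 17115 genes tested against control lay below it, against 76.5% below NR1D2. The order of the groups is given below in CPM, which compares 1 gene between samples.

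A gene was called when its adjusted p was under 0.05 in edgeR's quasi-likelihood test, and counted as a DEG when its log2 fold change was also above 1 or below -1. All 3 drugs were compared with the same 3 control samples. Iohexol up-regulated 3 of 10 clock genes, NR1D1, NR1D2 and DBP, where 21.0% of 15657 genes tested were called (11.2% higher and 9.77% lower). None of the 10 was called lower with edgeR, DESeq2 or limma-voom, and 1 (PER2) was lower at an unadjusted p under 0.05 in edgeR. Without iohexol replicate 3, NR1D1 (0.97, adjusted p = 5.65e-06), NR1D2 (0.33, adjusted p = 0.0132) and DBP (0.96, adjusted p = 0.00267) were still called, and CLOCK was added as lower. Cisplatin changed 7 of 10, PER1, CRY1, CRY2 and NR1D1 upward and CLOCK, PER3 and NR1D2 downward, where 59.8% of 15876 genes were called (29.2% higher and 30.6% lower). Vancomycin changed 8 of 10, ARNTL, PER1, CRY2 and NR1D1 upward and CLOCK, PER3, CRY1 and NR1D2 downward, where 57.9% of 15819 genes were called (29.1% higher and 28.8% lower). With 10 genes these shares lie near those of all genes and are no result about the clock genes as a set. Scaled by library size only, all genes tested had a median of 0.22 with cisplatin in place of 0.01, and 5 clock genes were then called higher and 2 lower with that drug, with 6921 higher and 3253 lower over all genes.

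Against control the sizes of the changes were also like those of other genes. The median size of the log2 fold change was 0.24 for the clock genes and 0.24 for all genes with iohexol, 0.41 and 0.41 with cisplatin, and 0.47 and 0.45 with vancomycin. The only DEG among the 10 was NR1D1 with vancomycin, where 18.5% of all genes were DEGs. No clock gene was a DEG with iohexol or cisplatin by edgeR, DESeq2 or limma-voom, nor at an unadjusted p with the same fold limit, while 5.28% and 16.3% of all genes were. The samples of the drug and control groups did not overlap for 4, 7 and 8 of the 10 genes with iohexol, cisplatin and vancomycin, against 37.9%, 65.1% and 63.2% of all genes.

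**Figure D2:**
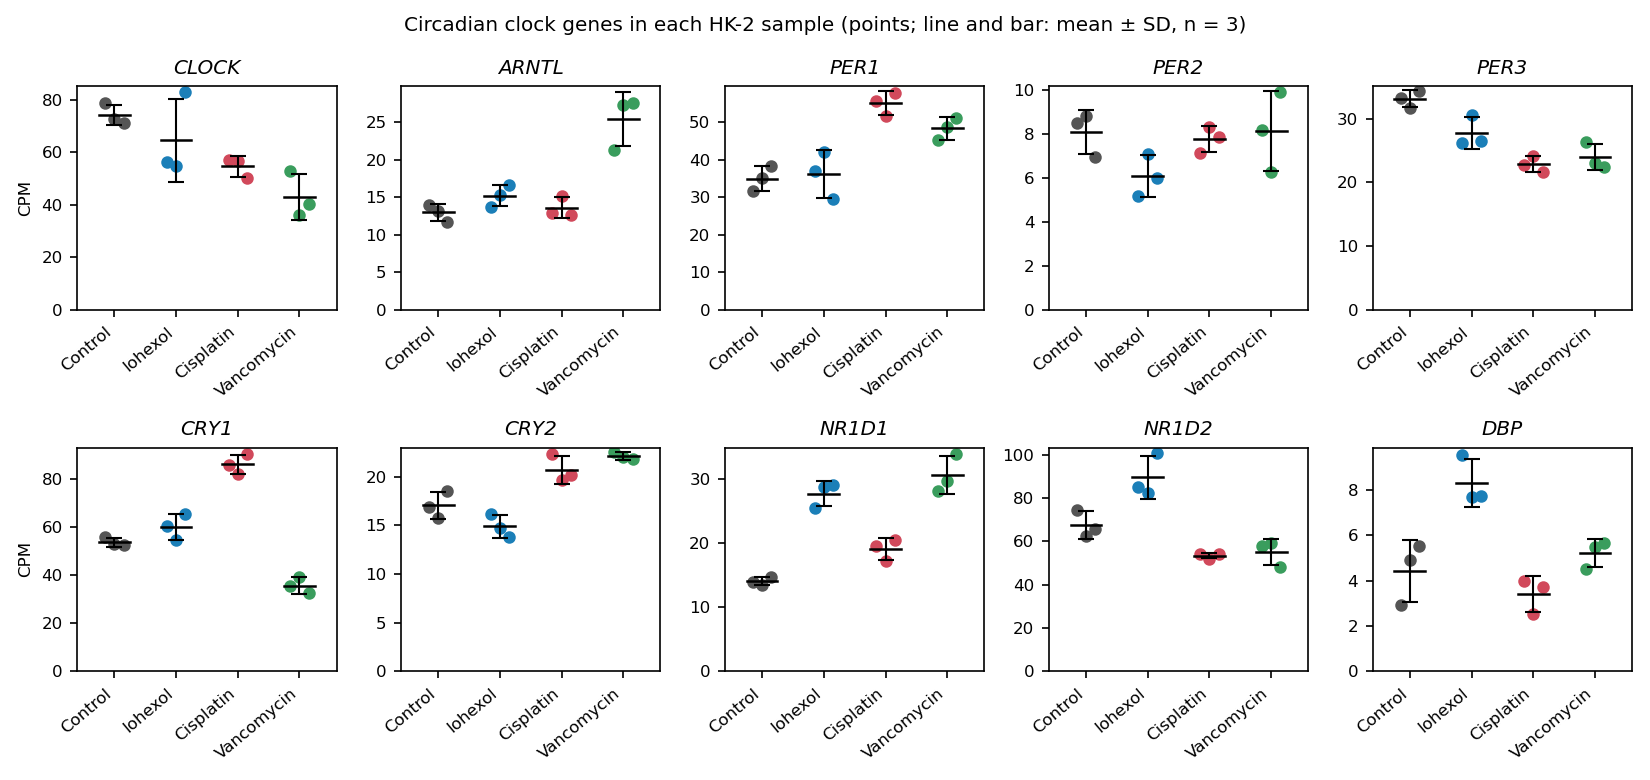
CPM of the 10 clock genes in each of the 12 samples (points), by group on the horizontal axis, with the mean and SD of the 3 samples of a group (line and bar). CRY1 is highest with cisplatin (82.4 to 90.4 CPM) and lowest with vancomycin (32.4 to 39.3), and NR1D1 is above the control samples with every drug.

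The activator pair moved apart with vancomycin, CLOCK downward and ARNTL upward. CLOCK, a basic helix-loop-helix factor with acetyltransferase activity, was at 78.7, 72.8 and 71.2 CPM in the control samples, 56.3, 54.7 and 82.9 with iohexol, 57.1, 56.8 and 50.04 with cisplatin, and 52.9, 36.1 and 40.2 with vancomycin. All cisplatin and vancomycin samples lay below all control samples, while iohexol replicate 3 lay above them and the other two iohexol samples below. Its log2 fold change was -0.44 (SE 0.08, adjusted p = 8.79e-05) with cisplatin and -0.83 (SE 0.12, adjusted p = 2.63e-06) with vancomycin. With iohexol it was -0.18 (SE 0.14, adjusted p = 0.396), and -0.40 without iohexol replicate 3 (adjusted p = 0.00325), which makes it a call. The group means ran from control (74.2 ± 3.95) over iohexol (64.6 ± 15.8) and cisplatin (54.6 ± 3.98) to vancomycin (43.1 ± 8.77). Of neighbours in this order, iohexol and cisplatin did not differ by the test (adjusted p = 0.157), and cisplatin and vancomycin differed by a log2 value of -0.34 (SE 0.14, adjusted p = 0.0427), though their samples overlapped. That last call was lost without cisplatin replicate 1 or 2 or vancomycin replicate 2 or 3 (adjusted p up to 0.225).

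ARNTL, the partner of CLOCK in the dimer, was at 14.001, 13.2 and 11.7 CPM in the control samples, 13.8, 15.3 and 16.6 with iohexol, 13.0, 15.2 and 12.7 with cisplatin, and 21.3, 27.3 and 27.7 with vancomycin. The vancomycin samples lay above all 9 others, which overlapped one another. The log2 fold change with vancomycin was 0.93 (SE 0.13, adjusted p = 2.20e-06), and it was 0.25 (SE 0.14, adjusted p = 0.225) with iohexol and 0.07 (SE 0.12, adjusted p = 0.651) with cisplatin. Tested directly, vancomycin exceeded cisplatin by 0.90 (SE 0.13, adjusted p = 4.36e-06) and iohexol by 0.74 (SE 0.13, adjusted p = 6.1e-05) on the log2 scale. Scaled by library size only, the cisplatin value rose to 0.29 and was called (adjusted p = 0.0499).

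The PER genes, whose proteins carry CRY into the nucleus, did not move as a group. PER1, also an early target of glucocorticoid and cAMP signalling, was at 31.7, 35.1 and 38.2 CPM in the control samples, 37.0, 42.1 and 29.5 with iohexol, 55.7, 51.7 and 57.9 with cisplatin, and 45.2, 48.7 and 51.2 with vancomycin. Cisplatin and vancomycin samples were all above the control and iohexol samples, and those of control and iohexol overlapped. Fold changes on the log2 scale were 0.65 (SE 0.08, adjusted p = 3.95e-06) with cisplatin, 0.42 (SE 0.11, adjusted p = 0.00154) with vancomycin and 0.07 (SE 0.14, adjusted p = 0.764) with iohexol. The difference between vancomycin and cisplatin was -0.19 (SE 0.11, adjusted p = 0.151) and was not called, but it was with library size only (-0.52, adjusted p = 0.000479) and in a fit of the 2 drug groups alone (-0.24, adjusted p = 0.0111). Cisplatin exceeded iohexol by 0.60 (SE 0.11, adjusted p = 0.00016) and vancomycin exceeded iohexol by 0.42 (SE 0.11, adjusted p = 0.00419), the latter not called when scaled by library size only (adjusted p = 0.131).

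PER2, whose protein is a main repressor of the dimer, was at 8.49, 8.84 and 6.97 CPM in the control samples, 5.18, 7.10 and 6.01 with iohexol, 7.15, 8.31 and 7.86 with cisplatin, and 8.20, 6.28 and 9.92 with vancomycin. It was the only clock gene of the 10 called with no drug, and the samples of every drug overlapped the control samples. On the log2 scale PER2 changed by -0.39 (SE 0.18, adjusted p = 0.146) with iohexol, -0.06 (SE 0.15, adjusted p = 0.734) with cisplatin and -0.03 (SE 0.18, adjusted p = 0.888) with vancomycin. At 75 to 161 counts per sample its standard errors were wider than those of CRY1.

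PER3, a period gene that is not required for the loop, was at 33.2, 31.7 and 34.4 CPM in the control samples, 26.1, 30.6 and 26.4 with iohexol, 22.7, 24.1 and 21.6 with cisplatin, and 26.3, 23.1 and 22.4 with vancomycin. The control samples were higher than all 9 treated ones. PER3 gave log2 fold changes of -0.54 (SE 0.09, adjusted p = 7.1e-05) with cisplatin and -0.51 (SE 0.11, adjusted p = 0.000464) with vancomycin. With iohexol it was -0.24 (SE 0.11, adjusted p = 0.159), not a call although the groups did not overlap. Vancomycin and cisplatin did not differ by the test (0.07, SE 0.11, adjusted p = 0.580), but with library size only vancomycin was called lower (-0.26, adjusted p = 0.0346). PER3 shares 16.9% of its 31-base sequences with other genes on either strand. That share takes in 868 of its exon bases (10.7%) that lie opposite UTS2, which had 0 to 2 counts.

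The cryptochromes, the repressors that hold the dimer inactive, included the 1 clock gene called in opposite directions with cisplatin and vancomycin, CRY1. CRY1 was at 55.9, 52.9 and 52.4 CPM in the control samples, 60.5, 54.6 and 65.6 with iohexol, 86.1, 82.4 and 90.4 with cisplatin, and 35.3, 39.3 and 32.4 with vancomycin. It was up-regulated by cisplatin (0.68, SE 0.07, adjusted p = 2.55e-07, or 1.60-fold) and down-regulated by vancomycin (-0.63, SE 0.10, adjusted p = 1.58e-05, or 1.55-fold lower). Neither group overlapped any other. Iohexol gave 0.18 (SE 0.10, adjusted p = 0.226), and its samples overlapped the control samples. The direct contrast of vancomycin with cisplatin was -1.27 (SE 0.09, adjusted p = 3.53e-10), a level 2.42-fold higher with cisplatin. No alternative setting and no sample left out changed a call of CRY1 against control.

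CRY2 was at 16.9, 15.8 and 18.5 CPM in the control samples, 16.2, 14.8 and 13.8 with iohexol, 22.4, 19.7 and 20.1 with cisplatin, and 22.6, 22.1 and 21.8 with vancomycin. Cisplatin and vancomycin samples were all above the control samples, by small steps. For CRY2 the log2 fold changes were 0.28 (SE 0.11, adjusted p = 0.0338) with cisplatin, 0.33 (SE 0.12, adjusted p = 0.0209) with vancomycin and -0.18 (SE 0.13, adjusted p = 0.371) with iohexol. The cisplatin call was lost without a filter on low counts (adjusted p = 0.0927), and without control replicate 2, cisplatin replicate 1 or cisplatin replicate 3 (0.158, 0.147 and 0.0611). The vancomycin call was lost with library size only (adjusted p = 0.0732), without a filter (0.0610) and without control replicate 2 (0.129). Against iohexol the differences were larger, 0.47 (SE 0.11, adjusted p = 0.00118) for cisplatin and 0.57 (SE 0.11, adjusted p = 0.000194) for vancomycin. CRY1 and CRY2 thus rose together with cisplatin and moved in opposite directions with vancomycin.

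**Figure D3:**
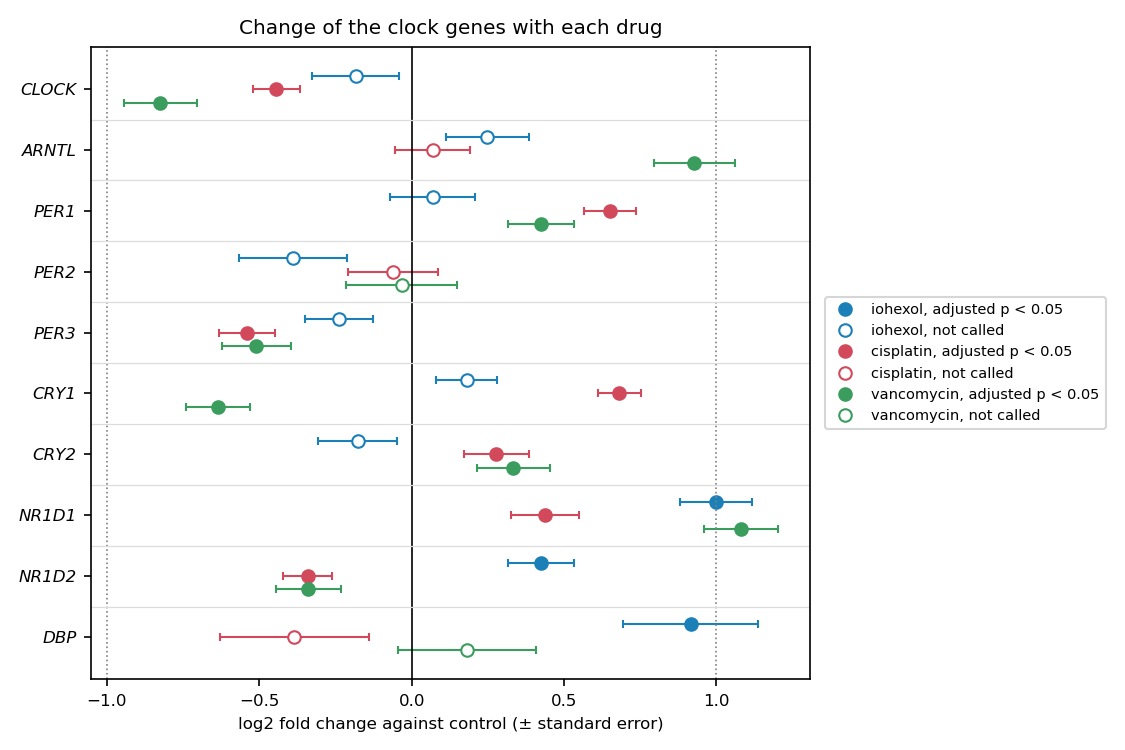
log2 fold change of each clock gene against control with its standard error for iohexol, cisplatin and vancomycin, from edgeR fits of 3 against 3 samples. Filled points have an adjusted p under 0.05 and dotted lines mark -1 and 1. NR1D1 lies to the right of 0 with all 3 drugs (1.00, 0.44 and 1.08), CRY1 at 0.68 with cisplatin and -0.63 with vancomycin.

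Of the second loop, NR1D1 was called with every drug. NR1D1, a nuclear receptor that binds haem and represses transcription, was at 13.9, 13.5 and 14.7 CPM in the control samples, 25.4, 28.7 and 29.003 with iohexol, 19.6, 17.1 and 20.4 with cisplatin, and 28.2, 29.7 and 33.9 with vancomycin. The cisplatin samples lay between the control samples and those of the other drugs, without overlap, while iohexol and vancomycin samples overlapped. On the log2 scale NR1D1 changed by 1.00 (SE 0.12, adjusted p = 0.000117) with iohexol, 0.44 (SE 0.11, adjusted p = 0.00266) with cisplatin and 1.08 (SE 0.12, adjusted p = 5.25e-08) with vancomycin, and no setting changed these calls. Iohexol and vancomycin did not differ by the test (0.14, SE 0.11, adjusted p = 0.277). Cisplatin was lower than iohexol by 0.54 on the log2 scale (contrast -0.54, SE 0.11, adjusted p = 0.000362), and vancomycin was higher than cisplatin by 0.68 (SE 0.11, adjusted p = 1.89e-05). The iohexol value lay at the limit for a DEG, and ranged from 0.95 to 1.07 over other settings and samples left out.

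NR1D1 overlaps THRA, the thyroid hormone receptor alpha gene on the opposite strand, over 263 exon bases (9.49%). The kit does not mark strand, so reads there cannot be told apart. THRA had 191, 224 and 251 counts in the control samples, 366, 381 and 275 with iohexol, 195, 185 and 187 with cisplatin, and 347, 326 and 382 with vancomycin. It rose with iohexol (0.63, SE 0.15, adjusted p = 0.0114) and vancomycin (0.56, SE 0.12, adjusted p = 0.000506), as NR1D1 did. It fell with cisplatin (-0.38, SE 0.12, adjusted p = 0.0111), where NR1D1 rose. Their shared reads were not tested as a part of either change.

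NR1D2 moved against NR1D1 with cisplatin and vancomycin. NR1D2, the paralogue of NR1D1, was at 74.7, 62.4 and 65.6 CPM in the control samples, 85.3, 82.5 and 101 with iohexol, 53.9, 51.9 and 54.3 with cisplatin, and 58.0, 59.1 and 48.0 with vancomycin. Iohexol samples were all above and cisplatin and vancomycin samples all below the control samples. For NR1D2 the log2 fold changes were 0.42 (SE 0.11, adjusted p = 0.0168) with iohexol, -0.34 (SE 0.08, adjusted p = 0.00135) with cisplatin and -0.34 (SE 0.11, adjusted p = 0.00858) with vancomycin. The iohexol call was lost without control replicate 2 (adjusted p = 0.122) or 3 (0.0849), the vancomycin call without vancomycin replicate 3 (0.0856) and the cisplatin call with library size only (-0.12, adjusted p = 0.179). The contrasts with iohexol were larger and kept their call in every setting tried, -0.75 (SE 0.10, adjusted p = 3e-06) for cisplatin and -0.70 (SE 0.10, adjusted p = 6e-06) for vancomycin. Cisplatin and vancomycin did not differ by the test (0.04, SE 0.10, adjusted p = 0.723), but with library size only vancomycin was called lower (-0.29, adjusted p = 0.0149).

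DBP, the output gene of the 10 and a D-box activator, was at 2.90, 4.89 and 5.52 CPM in the control samples, 9.54, 7.68 and 7.75 with iohexol, 4.00, 2.52 and 3.72 with cisplatin, and 4.50, 5.47 and 5.67 with vancomycin. The iohexol samples were above all 9 others, and the rest overlapped in part. DBP gave log2 fold changes of 0.92 (SE 0.22, adjusted p = 0.0128) with iohexol, -0.39 (SE 0.25, adjusted p = 0.186) with cisplatin and 0.18 (SE 0.23, adjusted p = 0.515) with vancomycin. Iohexol exceeded cisplatin by 2.43-fold (contrast of cisplatin with iohexol -1.28, SE 0.22, adjusted p = 6.1e-05). It exceeded vancomycin by 1.59-fold (contrast -0.67, SE 0.21, adjusted p = 0.0107), a call lost without iohexol replicate 1 (-0.56, adjusted p = 0.0523). Without iohexol replicate 1 the call against control was lost (0.80, adjusted p = 0.0552), and without control replicate 1 the cisplatin value became a call (-0.61, adjusted p = 0.0192).

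DBP had few reads, 40 to 138 counts, and 661 of its exon bases (10.1%) lie opposite SPHK2, a sphingosine kinase gene with 172 to 418 counts. SPHK2 gave a log2 fold change of 0.54 (SE 0.18, adjusted p = 0.0571) with iohexol, 0.68 (SE 0.12, adjusted p = 8.88e-05) with cisplatin and 0.16 (SE 0.14, adjusted p = 0.364) with vancomycin. The SPHK2 change was thus a call with cisplatin, where DBP was not called, and its part in the DBP values was not tested. The search for shared 31-base sequences took both strands, so bases opposite an overlapping gene count as shared. By that measure DBP shares 13.0% of its sequences with other genes, NR1D1 8.74% and PER2 5.13%. CLOCK, ARNTL, PER1, CRY1, CRY2 and NR1D2 share less than 2% each. The shares of DBP and NR1D1 take in their overlaps with SPHK2 and THRA and do not add to them. CLOCK overlaps TMEM165 on the opposite strand over 76 exon bases only.

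Between drugs the clock genes were tested in a fit of all 12 samples. Library size only moved the median contrast of all genes by more than 0.1 in all 3 pairs, to 0.13 for cisplatin against iohexol, -0.22 for vancomycin against iohexol and -0.30 for vancomycin against cisplatin. Cisplatin and iohexol differed in 7 of 10 (PER1, CRY1 and CRY2 higher, PER3, NR1D1, NR1D2 and DBP lower with cisplatin), against 54.0% of 17073 genes. The PER3 contrast (-0.28, SE 0.11, adjusted p = 0.0294) was lost in 5 settings. Vancomycin and iohexol differed in 7 (ARNTL, PER1 and CRY2 higher, CLOCK, CRY1, NR1D2 and DBP lower with vancomycin), against 56.6%. Vancomycin and cisplatin differed in 5 (ARNTL, NR1D1 and DBP higher, CLOCK and CRY1 lower with vancomycin), against 64.7%. The median size of this contrast was 0.26 for the clock genes and 0.61 for all genes. It was 0.50 and 0.45 for cisplatin against iohexol, and 0.58 and 0.49 for vancomycin against iohexol. The clock genes were not tested as a set. The DBP contrast of vancomycin with cisplatin (0.61, SE 0.23, adjusted p = 0.0253) was lost in 4 settings, and those of ARNTL, CRY1 and NR1D1 in none. With library size only, 4 clock genes were higher and 3 lower with cisplatin than with iohexol, 2 higher and 5 lower with vancomycin than with iohexol, and 2 higher and 5 lower with vancomycin than with cisplatin.

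Ratios of 2 clock genes within a sample do not depend on the scaling between samples. They were computed as log2 ratios of counts, with 9 tests in all, and the exact two-sided permutation test of 3 against 3 samples cannot give a p below 0.1. The CRY1 to CRY2 ratio was 1.72, 1.74 and 1.497 in the control samples, 1.90, 1.88 and 2.24 with iohexol, 1.94, 2.06 and 2.16 with cisplatin, and 0.65, 0.83 and 0.57 with vancomycin. It was higher than control in every iohexol and cisplatin sample and lower in every vancomycin sample. The difference from control was 0.35 with iohexol, 0.40 with cisplatin and -0.97 with vancomycin, each with an exact permutation p of 0.1 (0.15 adjusted over the 9 tests).

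The NR1D1 to ARNTL ratio sets a repressor of ARNTL against ARNTL itself. It was -0.01, 0.03 and 0.33 in the control samples, 0.89, 0.91 and 0.80 with iohexol, 0.59, 0.17 and 0.69 with cisplatin, and 0.40, 0.12 and 0.29 with vancomycin. Only the iohexol samples stood clear of the control samples, by 0.75 (exact permutation p = 0.1, adjusted 0.15). With vancomycin, where NR1D1 and ARNTL both rose, the ratio differed from control by 0.15 (exact permutation p = 0.3), and with cisplatin by 0.37 (exact permutation p = 0.2). The PER2 to ARNTL ratio was -0.72, -0.58 and -0.75 in the control samples, -1.40, -1.10 and -1.46 with iohexol, -0.86, -0.87 and -0.69 with cisplatin, and -1.38, -2.12 and -1.48 with vancomycin. It was lower than control in every iohexol and vancomycin sample, by -0.64 and -0.98 (exact permutation p = 0.1 for each, adjusted 0.15), and differed by -0.12 with cisplatin (exact permutation p = 0.3). With vancomycin ARNTL was called higher and PER2 was not called, and with iohexol neither gene was called.

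**Figure D4:**
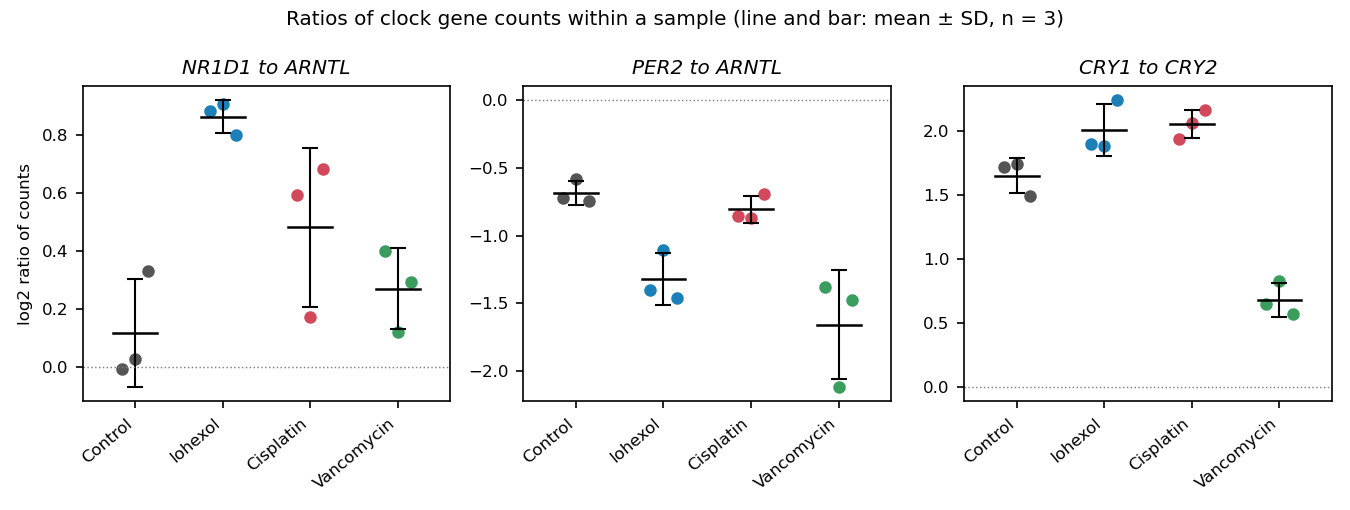
log2 ratio of the counts of 2 clock genes in each sample (points) by group, with the mean and SD of 3 samples (line and bar). CRY1 to CRY2 is at 1.497 to 1.74 in the control samples and at 0.57 to 0.83 with vancomycin, NR1D1 to ARNTL is highest with iohexol (0.80 to 0.91), and PER2 to ARNTL is lower than control with iohexol and vancomycin.

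Other genes of the clock were followed as 3 lists. The first held 12 loop partners and output factors (among them NPAS2, ARNTL2, RORA, RORB, NFIL3, TEF, HLF, BHLHE40, BHLHE41, CIART and TIMELESS). The shares of all genes called higher and lower, against which the counts of these lists stand, were 11.2% and 9.77% with iohexol, 29.2% and 30.6% with cisplatin, and 29.1% and 28.8% with vancomycin. With iohexol 4 of the 10 tested rose (NPAS2, RORA, HLF and BHLHE41) and 3 fell (ARNTL2, TEF and BHLHE40), with a median log2 fold change of 0.15 against 0.01 for all genes. With cisplatin 1 rose (TIMELESS) and the other 9 fell, with a median of -0.88 against 0.01 for all genes. With vancomycin 6 of 11 rose (among them NPAS2, RORA, NFIL3, BHLHE41 and CIART) and 1 fell (TIMELESS), with a median of 0.35 against -0.01. With library size only, 1 was higher and 7 lower with cisplatin, and 5 higher and 2 lower with vancomycin.

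NPAS2, a paralogue of CLOCK that can take its place in the dimer, was a DEG with all 3 drugs in the main fits. It was at 7.76, 5.77 and 7.04 CPM in the control samples, 19.1, 17.6 and 18.2 with iohexol, 3.58, 2.96 and 2.84 with cisplatin, and 13.9, 13.2 and 16.3 with vancomycin. On the log2 scale NPAS2 changed by 1.43 (SE 0.15, adjusted p = 4.06e-05) with iohexol, -1.13 (SE 0.19, adjusted p = 5.79e-05) with cisplatin and 1.04 (SE 0.16, adjusted p = 5.64e-06) with vancomycin. The cisplatin and vancomycin values lie near the limit for a DEG. Library size only moved the median of the first list from -0.88 to -0.67 with cisplatin and from 0.35 to 0.27 with vancomycin. No group overlapped another. CLOCK and NPAS2 therefore fell together with cisplatin and moved apart with vancomycin.

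RORA, an activator of ARNTL, had the same directions. The control samples held 8.84 to 10.01 CPM of it, the iohexol samples 13.9 to 16.4, the cisplatin samples 4.00 to 4.31 and the vancomycin samples 16.2 to 17.9. It changed by 0.69 (SE 0.14, adjusted p = 0.0041) with iohexol, -1.18 (SE 0.15, adjusted p = 3.53e-06) with cisplatin and 0.80 (SE 0.14, adjusted p = 2.52e-05) with vancomycin on the log2 scale. BHLHE41 (DEC2), a repressor that competes for E-boxes, changed by 0.68 (SE 0.09), -1.26 (SE 0.10) and 0.41 (SE 0.10), each a call. HLF, a D-box factor related to DBP, changed by 1.06 (SE 0.25) and -1.14 (SE 0.34), both DEGs, and by -0.38 (SE 0.32, adjusted p = 0.319) with vancomycin. Its counts were low, 28 to 30 in the control samples and 9 to 21 with cisplatin. HLF and DBP were thus both up-regulated by iohexol, while TEF, the other D-box activator of this family, fell (-0.68, SE 0.18, adjusted p = 0.0213). RORB, with 0 to 2 counts, was not tested.

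**Figure D5:**
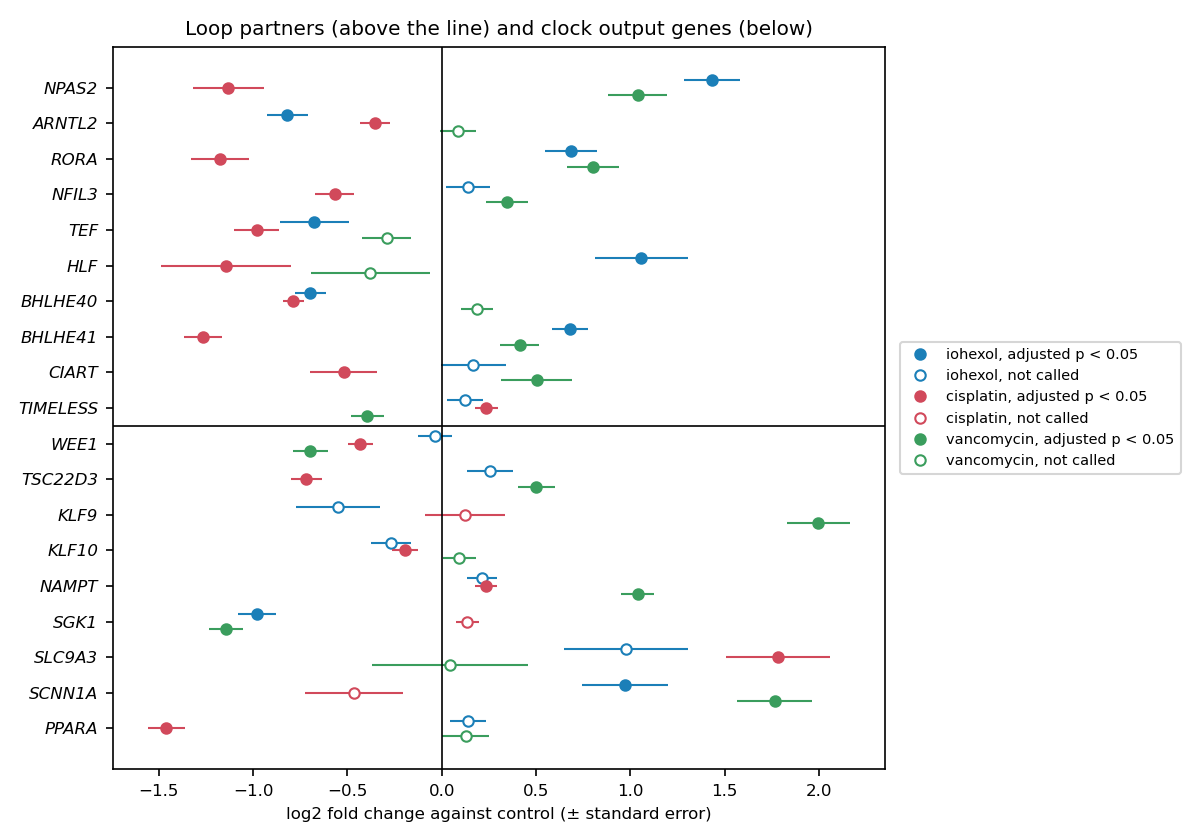
log2 fold change against control with its standard error for 10 loop partners (above the line) and 9 clock output genes (below), for iohexol, cisplatin and vancomycin. RORB is left out for its low counts, and filled points have an adjusted p under 0.05. Of these partners 9 lie left of 0 with cisplatin, and NPAS2 lies right of 0 with iohexol and vancomycin.

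The second list held 9 enzymes that modify clock proteins (among them CSNK1D, CSNK1E, CSNK1A1, GSK3B, BTRC, FBXW11, USP2 and SIRT1). None was called with iohexol by edgeR, DESeq2 or limma-voom, and 2 (CSNK1E and SIRT1) had an unadjusted p under 0.05 in edgeR. With cisplatin 3 rose (CSNK1E, USP2 and SIRT1) and 3 fell (GSK3B, BTRC and FBXW11), or 5 and 2 when scaled by library size only. With vancomycin 2 rose (CSNK1D and CSNK1E) and 4 fell (among them BTRC, FBXW11 and USP2). The 6 of 9 called with each of these drugs lie near the 59.8% and 57.9% of all genes called. The median log2 fold changes were -0.02, 0.03 and -0.15. CSNK1E, a kinase that marks PER for destruction, rose by 0.86 (SE 0.10, adjusted p = 4.91e-08) with vancomycin and 0.43 (SE 0.08, adjusted p = 0.000148) with cisplatin.

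The third list held 10 genes known as clock outputs (among them WEE1, TSC22D3, KLF9, KLF10, NAMPT, SGK1, SLC9A3, SCNN1A and PPARA), all of which also answer to other signals. With iohexol 1 rose and 2 fell (or 3 and 2 with library size only), with cisplatin 2 rose and 5 fell (3 and 4), and with vancomycin 4 rose and 3 fell. The 3, 7 and 7 of 10 called stand against 21.0%, 59.8% and 57.9% of all genes called, and the last 2 counts lie near those shares. Medians of the list on the log2 scale were 0.05, -0.31 and 0.11. SGK1, a kinase that acts on tubular sodium transport, was a DEG with vancomycin (-1.14, SE 0.09, adjusted p = 1.09e-10) and was lower with iohexol (-0.98, SE 0.10, adjusted p = 4.5e-05). With cisplatin it gave 0.14 (SE 0.06, adjusted p = 0.0598), which became a call in 3 settings.

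Of the transport genes, SCNN1A, the alpha subunit of the epithelial sodium channel, rose with vancomycin (1.77, SE 0.20, adjusted p = 6.25e-08) and iohexol (0.97, SE 0.23, adjusted p = 0.0106), from 2.57 to 4.21 CPM in the control samples. SLC9A3, the sodium-proton exchanger NHE3, rose with cisplatin (1.78, SE 0.28, adjusted p = 2.73e-05), from 0.855 to 1.25 CPM in the control samples to 3.03 to 4.08. It gave 0.98 (SE 0.33, adjusted p = 0.0547) with iohexol, and the control samples held only 13 to 20 counts of it. KLF9, a target of glucocorticoids and the clock, was called with vancomycin alone (2.00, SE 0.17, adjusted p = 3.68e-10), from 3.26 to 4.14 CPM to 14.01 to 15.7. NAMPT, the enzyme that recycles NAD, rose by 1.04 (SE 0.09, adjusted p = 5.31e-10) with vancomycin and 0.23 (SE 0.06, adjusted p = 0.00295) with cisplatin. PPARA, a nuclear receptor of fatty acid use, fell with cisplatin (-1.46, SE 0.10, adjusted p = 8.78e-10), where all 3 samples (14.04 to 17.3 CPM) were below every other sample.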

How the data were processed

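The 12 HK-2 libraries (3 of each group) were made with an NEBNext Ultra kit after poly(A) selection, and this kit does not mark strand. The authors deposited raw counts per gene, which are whole numbers, and a gene length in bases. The submitters' processing notes name CASAVA 1.8, fastp, HISAT2 2.0.5, featureCounts 1.5.0-p3 and DESeq2 1.20.0. The strand setting and annotation release are not given in the sources used here. All 58735 gene identifiers and positions match GENCODE release 29 on GRCh38, which served for overlaps and for shared 31-base sequences. Groups come from the treatment label, and doses and time from the treatment protocol. Counts were tested with edgeR 4.0.16 (R 4.3.3, TMM, filterByExpr with 10 counts and a total of 15, glmQLFit and glmQLFTest), in a fit of 3 against 3 samples for each drug and in a fit of all 12 for contrasts between drugs. P-values were adjusted by Benjamini-Hochberg over all genes tested. The study used limma, which is an alternative here. A standard error is the size of the log2 fold change divided by the square root of F. CPM uses the total count times the TMM factor (0.885 to 1.13), and levels per kilobase the deposited gene length. Ratios carry a pseudocount of 0.5. With 14057282 to 18177109 counts per sample, a floor of 3 counts is 0.177 to 0.218 CPM and covers counting error only. On simulated counts made for iohexol against control, 96 of 100 genes changed by a log2 value of 1 and 100 of 100 changed by 2 were recovered with the true sign, and 6 unchanged genes were called among 15650 tested. The simulation gave every gene the same spread and held no sample that stood apart. Genes of low mean count were not changed, and smaller changes were not simulated. It therefore does not measure recovery or false calls in the real samples.

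The clock genes and the 3 lists were chosen with earlier results of these data known. The genes named are the 10 clock genes, genes of the lists that were DEGs with at least 1 drug, genes that overlap a clock gene and the cell markers. ARNTL2, TEF, BHLHE40, TIMELESS, NFIL3, CIART and the enzymes are outside that rule and were named after their values were seen. RORB, WEE1, TSC22D3 and KLF10 were not DEGs with any drug and are outside it as well. Some genes of the lists and markers are counted but not reported here by name. Alternatives were DESeq2 1.42.0, limma-voom 3.58.1, other scalings and filters, all 4 groups in 1 fit, a replicate block, and leaving out each sample. No pair of samples in a group differed by as little as sampling noise (chi-square of 2.31 to 16.7 per degree of freedom over genes). Figures were drawn with matplotlib 3.10.9.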

Additional observations from a re-analysis of the deposited data

How the results depend on the processing

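Of 894 fold changes of single genes against control recomputed under other settings, 853 kept their direction and their side of the threshold, 14 lost a call, 13 gained one and 14 changed sign, each of the latter not a call in either setting. The calls lost or gained by a clock gene against control are given beside its values. With DESeq2, RLE size factors and the replicate block no call of these genes changed. The sources used here do not say whether the replicate numbers pair the samples. Deviations of samples with the same number correlated at -0.184 to 0.103, and those with different numbers at -0.192 to 0.294. These values show no sign of pairing, but deviations from means of 3 samples cannot exclude it. With the replicate block 3, 7 and 8 clock genes were called against control, while over all genes the iohexol calls went from 3284 to 2096. Clock genes that were DEGs with iohexol numbered 1 with library size only and 1 with at least 10 counts in every sample, and 0 to 2 when a sample was left out (2 without control replicate 3, 1 without iohexol replicate 1). Those called lower with iohexol numbered 0 to 1 (CLOCK, without iohexol replicate 3), and DEGs with vancomycin 1 to 2 (2 without vancomycin replicate 1), all with a sample left out. Those called between vancomycin and cisplatin numbered 3 to 5 with a sample left out (3 without cisplatin replicate 2 or vancomycin replicate 2 or 3), 7 with library size only and 6 in a fit of the 2 drug groups alone. Of the enzymes, 1 was called with iohexol with no filter, 1 in the fit of all 4 groups, and 0 to 1 when a sample was left out. Of the output genes, 5 were called with iohexol with library size only, 6 in the fit of all 4 groups and 2 to 6 when a sample was left out (6 without iohexol replicate 3). Against control, signs turned for PER2 with cisplatin at library size only (0.16), PER2 with vancomycin in the fit of all 4 groups (0.0086), and SLC9A3 with vancomycin at library size only (-0.033) and with limma-voom (-0.032). With a sample left out the ranges crossing 0 were -0.064 to 0.20 for PER1 with iohexol, -0.016 to 0.12 for ARNTL with cisplatin, -0.20 to 0.13 for PER2 and -0.041 to 0.36 for DBP with vancomycin, and -0.30 to 0.32 for SLC9A3 with vancomycin. Between vancomycin and cisplatin, library size only turned NR1D2 (-0.29) and PER3 (-0.26), then called lower, and CRY2 (-0.24) and PER2 (-0.27), not called, and between vancomycin and iohexol NR1D1 (-0.065), not called. NR1D2 between vancomycin and cisplatin also turned in the fit of the 2 drug groups alone (-0.011) and without vancomycin replicate 2 (-0.0025), and PER2 without vancomycin replicate 3 (-0.094), none of them a call. The cause of these shifts was not tested. Leaving out control replicate 2 lowered the calls over all genes with iohexol from 3284 to 1849, without control replicate 3 to 2227, without iohexol replicate 1 to 2287 and without iohexol replicate 2 to 2111, and without iohexol replicate 3 they rose to 4544. Of the 10 clock genes, depth limits DBP and PER2 most. Of the list genes named, RORB, HLF and SLC9A3 also had few counts.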
